A study of Mus musculus with 17 samples.

Results

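The platelet-derived growth factors and vascular endothelial growth factors A to C were followed with the 2 PDGF receptors in skeletal stem and progenitor cells of the mouse. Probe sets that the platform annotation gives to exactly 1 of 9 gene symbols were taken: the ligands Pdgfa, Pdgfb, Pdgfc, Pdgfd, Vegfa, Vegfb and Vegfc, and the receptors Pdgfra and Pdgfrb. This gave 20 probe sets of the 34945 with 1 symbol, and 9 genes of the 18193 measured. Of the 20 probe sets 19 passed the filter on low values, as did all 9 genes among 14504 tested, and 1 probe set of Pdgfd (1446691_at) did not. For each gene the probe set of highest mean signal gives the values below, and its other probe sets are given where they disagree.

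PDGF ligands are secreted dimers that bind 2 receptor tyrosine kinases: PDGF-A and PDGF-C act on PDGFRα, PDGF-D acts mainly on PDGFRβ, and PDGF-B binds both. PDGF-C and PDGF-D are released in a latent form and are cut outside the cell before they bind. VEGF-A, whose transcript is raised by low oxygen, drives blood vessel growth through KDR and FLT1; VEGF-B binds FLT1, and VEGF-C, known for lymphatic vessel growth, binds FLT4 and KDR. In bone, vessels enter the callus that bridges a fracture, and PDGF receptors mark mesenchymal and perivascular cells.

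RNA of double-sorted mouse skeletal stem cells (mSSCs) and of the bone, cartilage and stroma progenitors downstream of them (mBCSPs) was hybridized to 17 Affymetrix whole-genome arrays, 9 of mSSCs and 8 of mBCSPs, from female C57BL/6 mice. Of these, 12 arrays held cells of fracture callus and 5 cells of uninjured bone. By the study's methods mice were ovariectomized (OVX) or sham operated at 8 weeks of age, a femur was fractured 6 weeks later, and callus was taken on day 7; OVX + E2 mice carried a 0.18 mg pellet of 17β-estradiol with the ovariectomy. The groups were OVX + E2 callus (2 arrays), OVX callus (2), sham callus (4), callus of conflicting labels (2, the title code being that of OVX and the tag saying sham), callus with no surgery stated (2), OVX uninjured bone (2) and sham uninjured bone (3). Cells were sorted as CD45-, Ter119-, Tie2- and AlphaV+ and then by CD105, Thy1, 6C3 and CD200. The labels do not say that arrays of a group came from separate mice, so that p-values measure the spread between these arrays only, which may be technical.

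The arrays carry 3 forms of title code, with 2 letters, with 3 letters, or with the population first, and what the forms stand for is not given. The 6 two-letter arrays are all of callus. The 7 three-letter arrays are sham callus, the callus of conflicting labels, OVX uninjured bone and 1 sham uninjured mSSC array, and the 4 population-first arrays are the callus of unstated surgery and the other sham uninjured pair. Callus and uninjured bone can therefore be compared within the three-letter and the population-first arrays only, and the form of the title is a term in every fit below. The mBCSP array of callus of unstated surgery stood apart, with a highest correlation to any other array of 0.898, against 0.931 to 0.984 for the other 16.

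Of the markers that the sort selected for, Itgav, which encodes AlphaV, had log2 signals of 10.51 to 12.78 over the 17 arrays. Cd200, among the markers used to separate the populations, ran over 8.15 to 13.55. It was at 12.19 in mSSCs and 12.87 in mBCSPs of OVX uninjured bone. In those of the population-first sham uninjured pair Cd200 was at 8.15 and 9.67. Eng, which encodes CD105, was higher on the mBCSP than on the mSSC array of every group and title form that holds both. Eng was at 8.42 in mSSCs and 8.75 in mBCSPs of OVX uninjured bone, and at 7.95 and 9.97 in three-letter sham callus. Markers of other cells were checked in the same arrays. Ptprc, which encodes the CD45 that the sort removed, had log2 signals of 6.58 to 13.53 on callus arrays and of 13.79 to 14.74 on uninjured arrays, and the mean log2 signal of 13 macrophage genes ran over 7.66 to 9.71 on callus arrays and 9.66 to 11.06 on uninjured arrays. Of these 13 genes 7 were lower in callus, as were 4 of 10 neutrophil genes. All 14 chondrocyte and all 7 osteoblast genes tested were higher in callus, with list means of 11.69 to 14.33 on callus arrays and 8.65 to 11.86 on uninjured arrays for the chondrocyte list. Of 10 mural cell genes tested 4 were higher in callus. The mural list means, over the 12 genes with a probe set, were 8.93 to 9.62 on callus arrays and 7.64 to 8.84 on uninjured arrays. The part of these lists in the members' values below was not tested. Endothelial genes stood out on the 3 three-letter mBCSP arrays, where the mean over 15 genes was 11.51 (callus of conflicting labels), 10.71 (sham callus) and 9.92 (OVX uninjured), against 7.27 to 8.79 on the other 14 arrays. On those 3 arrays Tek, which encodes the Tie2 that the sort removed, had log2 signals of 11.70, 9.88 and 10.48, and at most 7.81 elsewhere. In bulk samples, fewer cells of a type and less RNA per cell cannot be told apart.

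In callus, 5 of the 9 genes were higher than in uninjured bone and none was lower: the ligands Pdgfa, Pdgfc and Vegfa and both PDGF receptors. Pdgfrb had the largest fold change of the 9 (6.16-fold), followed by Pdgfc (4.14-fold), Pdgfra (3.23-fold), Vegfa (2.48-fold) and Pdgfa (2.15-fold). The other 4 ligands, Pdgfb, Pdgfd, Vegfb and Vegfc, did not pass the test. Calls throughout are limma's, at an adjusted p (Benjamini-Hochberg, over all genes tested) below 0.05. By this rule 42.4% of all genes were called in callus against uninjured bone, 22.6% higher and 19.8% lower, so that about 1 gene in 5 moved in each direction. The median log2 fold change was 1.11 over the 9 genes and 0.02 over all genes tested.

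**Figure D1:**
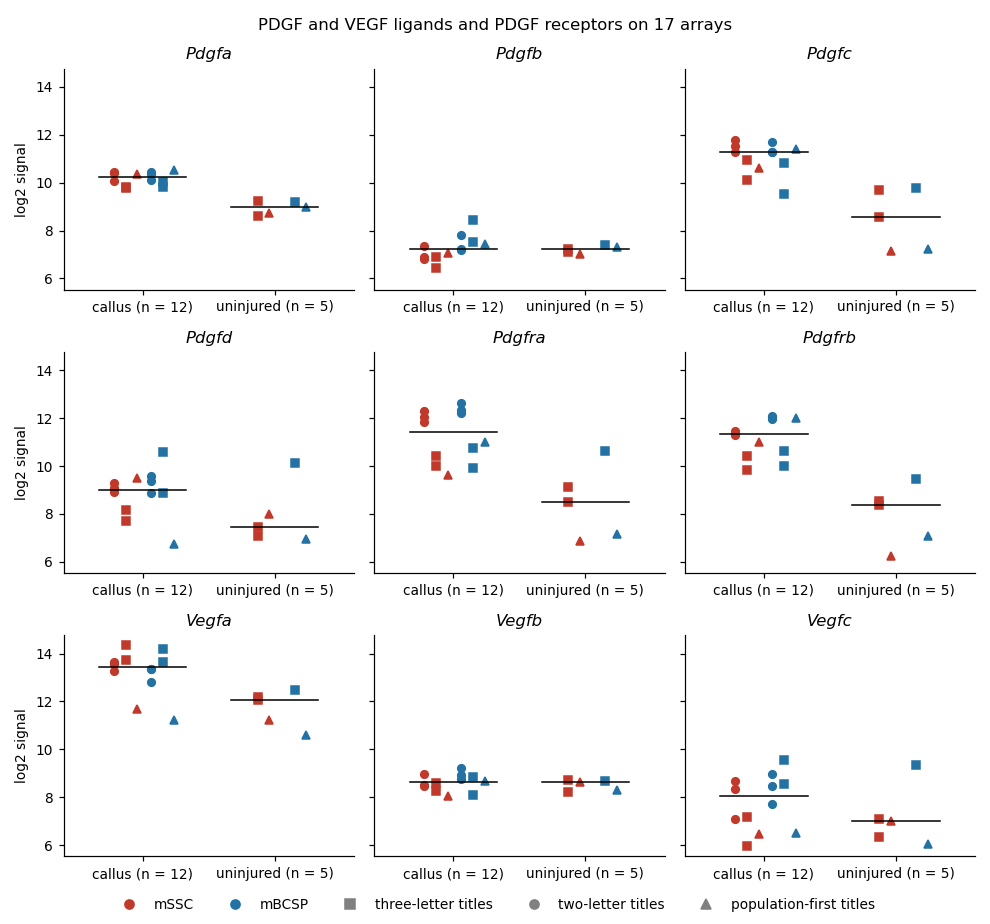
Log2 signal (y axis) of the 9 genes on each array, with the 12 callus arrays left and the 5 uninjured arrays right in each panel; colour gives the population, the marker gives the form of the title code, and the bar is the median. All callus arrays lie above all uninjured arrays for Pdgfa and Pdgfrb, and the groups overlap for the other 7 genes, with 11, 10 and 8 of 12 callus arrays above all uninjured arrays for Pdgfc, Vegfa and Pdgfra.

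Pdgfrb encodes the receptor of PDGF-B and PDGF-D (GRCm38.p6, chromosome 18). Its log2 signal was 9.85 at the lowest, 11.32 at the median and 12.07 at the highest of 12 callus arrays. On uninjured arrays it was 8.54 (OVX mSSC), 9.46 (OVX mBCSP), 8.37 (sham mSSC, three-letter), 6.27 (sham mSSC, population-first) and 7.08 (sham mBCSP, population-first). The groups did not overlap, and the 2 population-first sham arrays were the lowest of all 17. The log2 fold change was 2.62 (SE 0.45, adjusted p = 0.0002298). The other probe set, 1417148_at, gave 0.85 (adjusted p = 0.006005), in the same direction and with a smaller change.

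Pdgfra encodes the receptor of PDGF-A and PDGF-C (chr5:75151322-75198206). The log2 signal was 9.63 at the lowest, 11.43 at the median and 12.63 at the highest on callus arrays. On uninjured arrays it was 9.13 (OVX mSSC), 10.64 (OVX mBCSP), 8.49 (sham mSSC, three-letter), 6.88 (sham mSSC, population-first) and 7.18 (sham mBCSP, population-first). The groups overlapped through the OVX mBCSP array, and 8 of 12 callus arrays lay above all uninjured arrays. The log2 fold change was 1.69 (SE 0.40, adjusted p = 0.003001), and the other probe sets, 1421916_at and 1438946_at, gave 1.08 (adjusted p = 0.000241) and 2.04 (adjusted p = 0.0001963).

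Among the ligands of these receptors, Pdgfc (chr3:81036416-81214040), a latent ligand of PDGFRα, had log2 signals of 9.52 at the lowest, 11.27 at the median and 11.79 at the highest on callus arrays. Uninjured arrays had 9.69 (OVX mSSC), 9.77 (OVX mBCSP), 8.55 (sham mSSC, three-letter), 7.13 (sham mSSC, population-first) and 7.22 (sham mBCSP, population-first). Only the three-letter sham mBCSP array of callus, at 9.52, fell within the uninjured range. The log2 fold change was 2.05 (SE 0.44, adjusted p = 0.001329) and the other probe set, 1449351_s_at, gave 2.59 (adjusted p = 0.0002051). Pdgfa (chr5:138976014-139000792), the other ligand of PDGFRα alone, had the narrowest spread of the genes called. Its log2 signal was 9.77, 10.22 and 10.53 at the lowest, median and highest on callus arrays. On uninjured arrays it was 9.23 (OVX mSSC), 9.21 (OVX mBCSP), 8.61 (sham mSSC, three-letter), 8.75 (sham mSSC, population-first) and 8.99 (sham mBCSP, population-first). All 12 callus arrays lay above all 5 uninjured arrays, as for Pdgfrb; over all genes tested 8.45% had every callus array above every uninjured array. The log2 fold change was 1.11 (SE 0.18, adjusted p = 0.0001371), and 1.05 (adjusted p = 0.0009785) at the probe set 1449187_at.

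Vegfa (chr17:46016993-46032377) had log2 signals of 11.22 at the lowest, 13.46 at the median and 14.34 at the highest on callus arrays. Uninjured arrays had 12.20 (OVX mSSC), 12.49 (OVX mBCSP), 12.07 (sham mSSC, three-letter), 11.24 (sham mSSC, population-first) and 10.61 (sham mBCSP, population-first). The 2 callus arrays that fell within the uninjured range, at 11.68 and 11.22, were the population-first ones, and the 2 three-letter sham arrays of callus, at 14.34 and 14.20, were the highest of all 17. The log2 fold change was 1.31 (SE 0.23, adjusted p = 0.0002236), and 1.18 (adjusted p = 0.0003998) at the probe set 1420909_at.

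The promoters of 4 of the 5 genes called are shown because these genes were higher in callus at every probe set; the RefSeq table of promoters matched 7 of the 9 genes, without Pdgfb and Pdgfrb. Each window is the 250 bases before the first start listed for the gene among these promoters, on GRCm38.p6. For Pdgfa and Pdgfra the window lies inside the gene span given above, not at its outer end. Each window was searched on both strands for 7 motifs: the Sp1 box GGGCGG, the hypoxia response core ACGTG, the AP-1 site TGANTCA, the TATA box TATAAA, the Runx site TGTGGT, the CCAAT box and the core of the estrogen response element AGGTCA. Capitals mark a match on either strand, and no match overlapped another. The windows are chr5:138994945-138995194 (minus strand) for Pdgfa, chr3:81036166-81036415 (plus strand) for Pdgfc, chr5:75152001-75152250 (plus strand) for Pdgfra and chr17:46032378-46032627 (minus strand) for Vegfa, given 5′ to 3′ on the gene's strand.
Pdgfa: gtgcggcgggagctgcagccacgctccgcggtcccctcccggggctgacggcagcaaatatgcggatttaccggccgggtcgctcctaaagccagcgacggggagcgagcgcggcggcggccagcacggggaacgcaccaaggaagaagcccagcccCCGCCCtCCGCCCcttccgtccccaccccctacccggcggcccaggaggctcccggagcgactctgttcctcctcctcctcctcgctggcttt
Pdgfc: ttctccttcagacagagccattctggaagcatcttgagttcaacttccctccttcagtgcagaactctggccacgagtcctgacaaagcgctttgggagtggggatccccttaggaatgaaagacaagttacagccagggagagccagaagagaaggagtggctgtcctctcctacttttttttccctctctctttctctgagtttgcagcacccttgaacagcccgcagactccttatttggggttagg
Pdgfra: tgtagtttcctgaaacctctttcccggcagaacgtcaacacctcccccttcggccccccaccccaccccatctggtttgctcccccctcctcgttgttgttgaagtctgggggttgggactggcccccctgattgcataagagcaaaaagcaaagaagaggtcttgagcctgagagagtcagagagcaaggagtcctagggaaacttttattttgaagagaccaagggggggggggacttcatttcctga
Vegfa: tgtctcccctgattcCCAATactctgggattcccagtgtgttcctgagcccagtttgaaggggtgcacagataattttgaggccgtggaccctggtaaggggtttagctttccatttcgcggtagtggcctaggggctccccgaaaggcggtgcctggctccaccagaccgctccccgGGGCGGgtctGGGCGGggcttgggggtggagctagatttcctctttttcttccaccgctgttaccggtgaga
The Pdgfa window is the richest of the 4 in G and C (72.4%) and holds 2 Sp1 boxes. The Vegfa window (59.2% G and C) holds 2 Sp1 boxes and 1 CCAAT box, and the hypoxia core was matched once in the window before the second start listed for Vegfa, not in the one shown. The windows of Pdgfc (50.8%) and Pdgfra (54.4%) matched none of the 7 motifs. The shares over all genes count every start listed, not the first alone, in 32851 windows of 27025 genes. Of these windows 32.7% held the Sp1 box, 33.8% the CCAAT box, 16.6% the hypoxia core and 6.75% the AP-1 site. The TATA box was held by 12.4%, the Runx site by 14% and the estrogen response core by 14%. A match is a description of the letters, not of a bound site.

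The 4 ligands that did not pass the test had intervals of different width. Pdgfb, the ligand of both receptors, had log2 signals of 6.44 to 8.43 on callus arrays and 7.04 to 7.41 on uninjured arrays, with a log2 fold change of 0.02 and a 95% interval of -0.46 to 0.50. Vegfb, the ligand of FLT1, ran over 8.06 to 9.24 on callus arrays and 8.23 to 8.73 on uninjured arrays, with a log2 fold change of -0.12 and an interval of -0.54 to 0.30, and it has 1 probe set. These intervals hold for the probe sets used: the other probe set of Pdgfb, 1450414_at, gave 0.71 (SE 0.47, adjusted p = 0.249). The probe set used for Pdgfb reached the filter level of 7.198 on 10 of 17 arrays, so that its interval is that of a low signal.

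Pdgfd and Vegfc were spread far more widely among arrays of 1 kind. Pdgfd, a latent ligand of PDGFRβ, ran over 6.73 to 10.59 on callus arrays and 6.95 to 10.15 on uninjured arrays, with a log2 fold change of 0.57 (95% interval -0.66 to 1.80, adjusted p = 0.468). Vegfc, the ligand of FLT4, ran over 5.95 to 9.57 on callus arrays and 6.06 to 9.37 on uninjured arrays, with a log2 fold change of 0.02 (interval -1.06 to 1.10); 5.95 is the floor set on the signals, at which the three-letter sham mSSC array of callus lay. The probe set 1426319_at of Pdgfd gave 0.86 (adjusted p = 0.109), and none of the 3 probe sets of Vegfc was called.

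The 5 calls did not hold alike in the 2 title forms that hold both conditions. In the three-letter arrays alone (4 callus, 3 uninjured; 34.5% of all genes called), Pdgfrb (1.35, adjusted p = 0.01243), Vegfa (1.72, adjusted p = 0.002514) and Pdgfa (0.82, adjusted p = 0.03132) passed the test, and Pdgfc (0.9998, adjusted p = 0.1275) and Pdgfra (0.72, adjusted p = 0.2195) did not. In the population-first arrays alone (2 callus, 2 uninjured; 7.96% of all genes called), Pdgfrb (4.82, adjusted p = 0.002347), Pdgfc (3.84, adjusted p = 0.006454) and Pdgfra (3.29, adjusted p = 0.01479) passed, and Pdgfa (1.57, adjusted p = 0.1832) and Vegfa (0.52, adjusted p = 0.7062) did not. Pdgfrb was thus the member called in both forms. On the population-first uninjured arrays Pdgfrb was at 6.27 and 7.08, Pdgfra at 6.88 and 7.18 and Pdgfc at 7.13 and 7.22. All but the last of these values lie under the filter level of 7.198, so that the sizes of these changes rest on low signals.

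The difference between the forms was tested in a comparison added after the values were seen, as the log2 fold change in population-first minus that in three-letter arrays, which called 4.36% of all genes. It was 3.50 (SE 0.37, adjusted p = 0.0001056) for Pdgfrb, 2.85 (SE 0.59, adjusted p = 0.01236) for Pdgfc and 2.55 (SE 0.56, adjusted p = 0.01773) for Pdgfra. For Pdgfa it was 0.74 (adjusted p = 0.2176), and for Vegfa -1.25 (adjusted p = 0.05783). The probe sets of the receptors disagreed: 1417148_at of Pdgfrb gave 0.37 and 1421916_at of Pdgfra gave -0.34, both not called, while 1438946_at of Pdgfra gave 2.33 (adjusted p = 0.006253) and 1449351_s_at of Pdgfc gave 3.12 (adjusted p = 0.002411). Without the mBCSP array of callus of unstated surgery, Pdgfc (2.43, adjusted p = 0.05231) and Pdgfra (2.11, adjusted p = 0.0732) were not called.

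**Figure D2:**
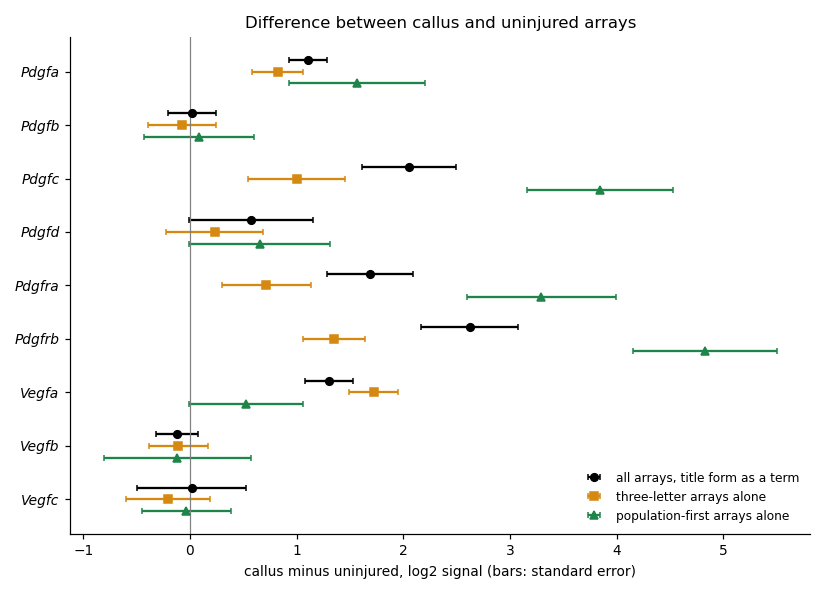
Log2 fold change of callus against uninjured bone (x axis, with its SE as bars) for each of the 9 genes, in all 17 arrays, in the 7 three-letter arrays alone and in the 4 population-first arrays alone. For Pdgfrb, Pdgfc and Pdgfra the population-first values (4.82, 3.84 and 3.29) lie right of the three-letter values (1.35, 0.9998 and 0.72), and for Vegfa left of them (0.52 and 1.72).

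The uninjured arrays of the 2 forms differ in other genes as well. The chondrocyte list mean was 8.65 to 8.70 on population-first and 10.93 to 11.86 on three-letter uninjured arrays, and the change in callus was larger in the population-first arrays for 7 of 14 chondrocyte genes, such as Col2a1 (4.04), and smaller for Ihh (-3.72). The mural list mean was 7.64 to 7.84 on population-first and 8.28 to 8.84 on three-letter uninjured arrays. By the same test the change in callus was larger for 3 of 10 mural genes (list median 1.34). It was also larger for 3 of 7 osteoblast (1.05) and 2 of 8 platelet genes (1.28), and smaller for 3 of 11 hypoxia targets (-0.49). All 10 neutrophil (0.90) and 4 erythroid genes (2.15) had positive estimates, 0 called. The part of these lists in the members' values was not tested. Without the mBCSP array of callus of unstated surgery the main log2 fold changes were 1.03 for Pdgfa, 1.69 for Pdgfc, 1.35 for Pdgfra, 2.25 for Pdgfrb and 1.46 for Vegfa, and the 5 calls were kept when any 1 of the 17 arrays was left out. With the mSSC and mBCSP arrays of a group as a random block (consensus correlation 0.133) the same 5 genes were called.

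Between the populations no gene was called in mSSCs against mBCSPs (0%; 9.66% of genes at an unadjusted p under 0.05). The 8 pairs of arrays of 1 group and title form nevertheless put Pdgfrb lower in mSSCs in 8 of 8. The labels do not say whether the cells of a pair came from the same mice. The mSSC minus mBCSP differences in log2 signal of Pdgfrb were -0.51 in OVX + E2 callus, -0.71 in OVX callus, -0.79 and -0.17 in the two-letter and three-letter sham callus, -0.22 in callus of conflicting labels, -0.99 in callus of unstated surgery, -0.93 in OVX uninjured and -0.82 in sham uninjured bone. The mean was -0.64 (SE 0.13, adjusted p = 0.3378), and the exact two-sided sign-flip test over 8 pairs gave p = 0.007812, which is the smallest that sign flips of 8 pairs can give. Adjustment of this p over all genes was not made, and 1.03% of all genes were lower in mSSCs in every pair. The other probe set of Pdgfrb gave -0.43.

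Pdgfra was lower in mSSCs in 6 of 8 pairs, with a mean difference of -0.56 (exact p = 0.03125), and its other probe sets gave -0.29 and 0.09. Pdgfb was lower in mSSCs in 7 of 8 pairs, with differences of -1.99 to 0.13 (mean -0.59, exact p = 0.01562). Vegfa was higher in mSSCs in 7 of 8 pairs, with differences of -0.28 to 0.62 (mean 0.24, exact p = 0.05469). Exact tests were run for all 9 genes and their p-values are unadjusted, and none of the 9 genes passed limma's test after adjustment over all genes.

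**Figure D3:**
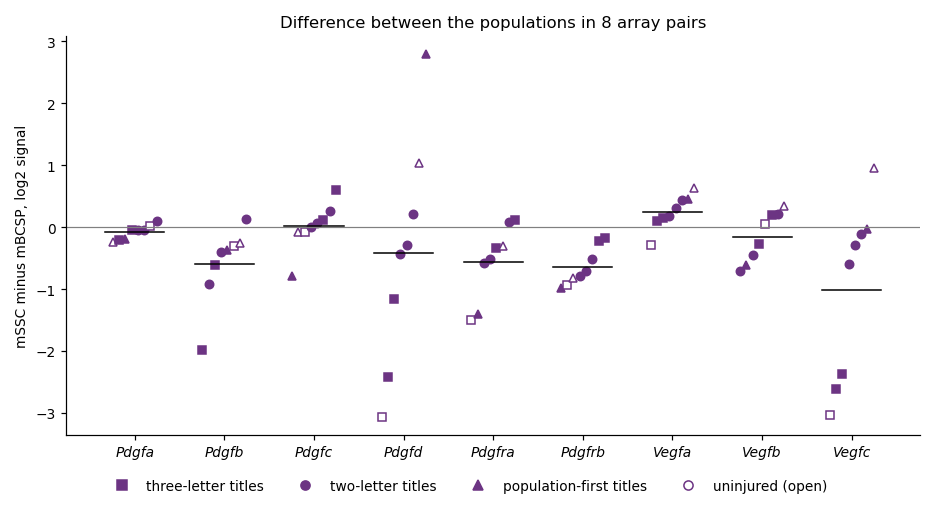
Difference in log2 signal between mSSCs and mBCSPs (y axis, mSSC minus mBCSP) in the 8 pairs of arrays for each of the 9 genes (x axis); filled points are callus, open points are uninjured bone, the marker gives the form of the title code, and the bar is the mean. All 8 points of Pdgfrb lie below 0, between -0.99 and -0.17, and those of Pdgfd spread over -3.06 to 2.79.

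For Vegfc, the 3 pairs of largest difference between the populations were the three-letter pairs, where the endothelial genes also differed most. The Vegfc difference was -2.38 in callus of conflicting labels, -2.62 in three-letter sham callus and -3.03 in OVX uninjured bone, and -0.60 to 0.95 in the other 5 pairs. The endothelial list mean differed in the same 3 pairs by -4.25, -3.44 and -2.34, and by -1.33 to 0.04 in the others. For Pdgfd the 3 differences were -2.43, -1.16 and -3.06, but the population-first pairs gave 2.79 (callus of unstated surgery) and 1.04 (sham uninjured), so that large differences were not limited to the three-letter pairs. An alternative added after the values were seen left out the 3 three-letter pairs. It gave a mean difference of -0.76 for Pdgfrb, against -0.64 over all pairs. For Vegfc it gave -0.02, against -1.01, a shift that the choice of pairs fixes, since these hold the 3 most negative differences of Vegfc, and for Pdgfd 0.66, against -0.42. The part of endothelial cells in the values of Vegfc, Pdgfd and Pdgfb was not tested.

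**Figure D4:**
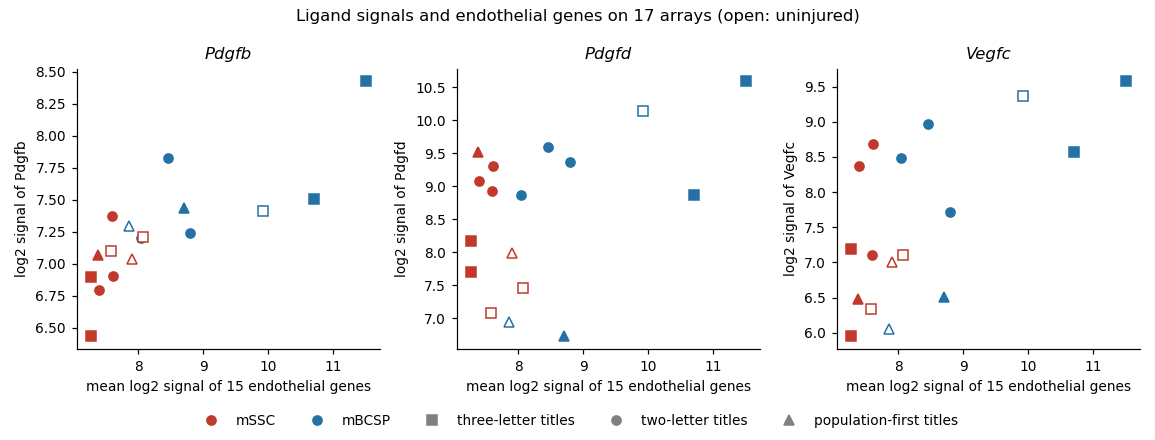
Log2 signal of Pdgfb, Pdgfd and Vegfc (y axes) against the mean log2 signal of 15 endothelial genes (x axis) on each of the 17 arrays. The 3 three-letter mBCSP arrays lie apart on the right at 9.92 to 11.51, where Pdgfd reads 8.87 to 10.59 and Vegfc 8.57 to 9.57; arrays of low endothelial mean reach into the same ranges, such as OVX + E2 mBCSPs and mSSCs (8.45 and 7.61), with Vegfc at 8.97 and 8.68 and Pdgfd at 9.60 and 9.31.

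The change in callus was not found to differ between mSSCs and mBCSPs. No gene was called for the interaction of injury and population (0%; 4.31% of genes at an unadjusted p under 0.05). At the probe sets used, the estimate furthest from 0 among the 9 genes was that of Pdgfd, 0.95 with a 95% interval of -1.27 to 3.18, and that of Pdgfb was -0.44 (interval -1.30 to 0.42). Intervals of this width leave differences of several fold between the populations unresolved at this number of arrays. Other probe sets differed, and none was called. For Pdgfb, 1450414_at gave -1.11 (SE 0.83). For Pdgfrb, 1417148_at gave -0.78 (SE 0.36), against 0.05 at the probe set used. Signs also differed for Pdgfra (0.50, and -0.05 at 1438946_at) and Vegfa (0.31, and -0.02 at 1420909_at).

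Ovary state was compared in callus, where the study asked how loss of the ovaries and estradiol act on skeletal stem cells. None of the 9 genes was called in OVX against sham callus, where no gene was called at all (0%; 2.02% at an unadjusted p under 0.05), or in OVX + E2 against OVX callus, where 3 genes were (0.0207%). All adjusted p-values of the 9 genes were 1. With the title form as a term, OVX against sham callus rests on the 2 two-letter sham arrays, since OVX + E2 and OVX callus are two-letter, so that each comparison is of 2 arrays with 2.

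Pdgfrb lay close to 0 in both comparisons. It had log2 signals of 11.47 and 11.98 in OVX + E2 mSSCs and mBCSPs, 11.35 and 12.06 in OVX, and 11.29 and 12.07 in two-letter sham callus. Its log2 fold change was 0.03 in OVX against sham (95% interval -0.56 to 0.62) and 0.02 in OVX + E2 against OVX callus (interval -0.57 to 0.61). Pdgfra was at 12.28 and 12.20 in OVX + E2 mSSCs and mBCSPs, 12.05 and 12.63 in OVX, and 11.83 and 12.35 in two-letter sham callus, with log2 fold changes of 0.25 (SE 0.39) and -0.11 (SE 0.39).

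Vegfa had the estimate with the smallest unadjusted p of the 9 in OVX + E2 against OVX callus. Its log2 signal was 13.27 and 12.83 in OVX + E2 mSSCs and mBCSPs, 13.65 and 13.35 in OVX, and 13.54 and 13.37 in two-letter sham callus. The OVX + E2 arrays lay below the OVX array of their own population in both, by a log2 of -0.45 (95% interval -0.91 to 0.01, unadjusted p = 0.05252). Leukocyte markers moved in the same arrays: 12 of 13 macrophage genes (median 1.501) and 10 of 10 neutrophil genes (median 1.67) had positive estimates in OVX + E2 against OVX callus, 0 called, and Ptprc was at 10.62 and 8.80 in OVX + E2 mSSCs and mBCSPs and at 8.31 and 6.58 in OVX ones. Markers moved in OVX against sham callus too, with 0 called. Negative estimates there were those of 13 of 15 endothelial (median -0.45), 9 of 10 neutrophil (median -0.56) and 8 of 13 macrophage genes (median -0.45). The part of these cells in the members' values was not tested in either comparison. For Vegfa, OVX against sham callus gave 0.05 (interval -0.41 to 0.50), and -0.26 with the arrays of conflicting labels counted as OVX. Vegfc had the estimate furthest from 0 in OVX against sham callus, 1.01 with an interval of -0.85 to 2.88, and stood at 0.40 (-1.47 to 2.27) in OVX + E2 against OVX callus.

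Pdgfc was at 11.52 and 11.26 in OVX + E2 mSSCs and mBCSPs, 11.79 and 11.72 in OVX, and 11.27 and 11.27 in two-letter sham callus, so that OVX lay above both in each population. The log2 fold change was 0.49 (SE 0.30) in OVX against sham callus. For OVX + E2 against OVX it was -0.36 (SE 0.30), and neither passed the test. Both comparisons share the 2 OVX arrays. The remaining ligands gave 0.33 and -0.003 (Pdgfa), -0.31 and 0.37 (Pdgfb), -0.17 and 0.47 (Pdgfd) and -0.19 and 0.18 (Vegfb) in OVX against sham and in OVX + E2 against OVX callus. For Pdgfd the probe set 1426319_at gave the opposite signs, 0.36 and -0.29. Signs also differed in OVX against sham callus at 1438946_at of Pdgfra (-0.02) and 1420909_at of Vegfa (-0.08). In OVX + E2 against OVX callus they differed at 1417148_at of Pdgfrb (-0.08).

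In uninjured bone OVX against sham called 21 genes (0.145%) and none of the 9. The largest estimates were 1.18 for Pdgfc (SE 0.38, adjusted p = 0.3867) and 1.11 for Pdgfra (SE 0.49, adjusted p = 0.6188). Markers of other cells moved there too: 13 of 14 chondrocyte genes (median 1.25, 1 called), 7 of 7 osteoblast genes (median 0.71) and 10 of 10 mural genes (median 0.48) had positive estimates and 8 of 8 platelet genes (median -1.89, 1 called) negative ones, and their part in the members' values was not tested. With the title form as a term this comparison rests on a single sham array, the three-letter mSSC one. Without that term Pdgfc stood at 2.11 (adjusted p = 0.0495), and the other probe sets of Pdgfra gave 0.0043 and -0.23. The 2 callus arrays of conflicting labels against sham callus called 42 genes (0.29%) and none of the 9, with 1.05 for Pdgfc (adjusted p = 0.1384) and -0.57 for Vegfa (adjusted p = 0.2252). There 12 of 13 macrophage genes (median 1.22) and 10 of 10 neutrophil genes (median 1.82) had positive estimates, 1 of each called, and their part in the members' values was not tested.

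**Figure D5:**
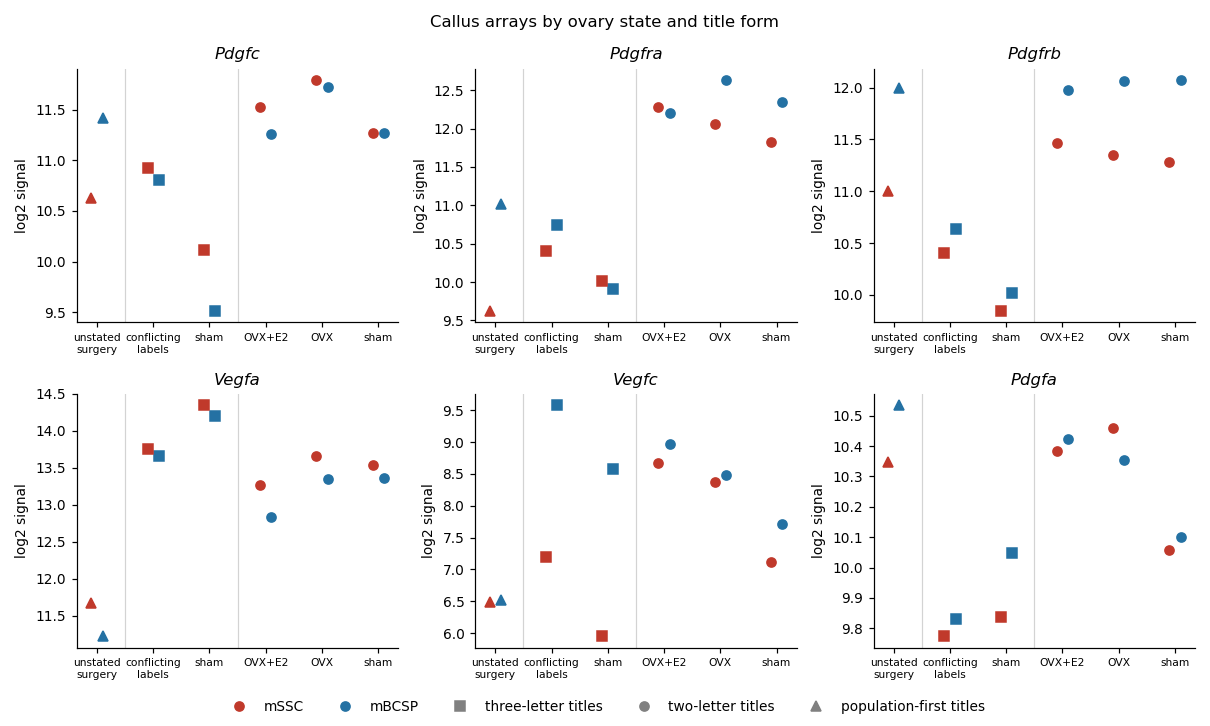
Log2 signal (y axis) of Pdgfc, Pdgfra, Pdgfrb, Vegfa, Vegfc and Pdgfa on the 12 callus arrays by group and title form (x axis), 1 point per array. Pdgfra lies at 9.91 and 10.02 in the three-letter and at 11.83 and 12.35 in the two-letter sham callus, further apart than OVX + E2, OVX and two-letter sham callus are from each other.

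Sham callus was hybridized under 2 title forms, and there 3 of the 9 genes differed: Pdgfrb, Pdgfra and Pdgfc were lower in three-letter than in two-letter sham callus, and none was higher (2.91% of all genes called, 1.72% lower). Pdgfra was at 10.02 and 9.91 in three-letter mSSCs and mBCSPs, against 11.83 and 12.35 in two-letter ones, a log2 fold change of -2.13 (SE 0.39, adjusted p = 0.01765). Pdgfrb was at 9.85 and 10.02, against 11.29 and 12.07 (-1.75, SE 0.27, adjusted p = 0.008504). Pdgfc was at 10.12 and 9.52, against 11.27 and 11.27 (-1.45, SE 0.30, adjusted p = 0.02876). The three-letter arrays were below both two-letter arrays for these 3 genes.

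Vegfa ran the other way, at 14.34 and 14.20 in three-letter and 13.54 and 13.37 in two-letter sham callus (0.82, SE 0.21, adjusted p = 0.06381), which missed the threshold. The other 2 probe sets of Pdgfra gave -2.28 and -1.69 and were called, while 1449351_s_at of Pdgfc (-1.19) and 1417148_at of Pdgfrb (-1.44) were not. Each comparison is of 2 arrays with 2: when any 1 of the 4 was left out, Pdgfc (-1.79 to -1.11) and Pdgfra (-2.51 to -1.75) lost the call, as did Pdgfrb (-2.01 to -1.48) except without the three-letter mSSC array, while all stayed below 0. In size, the estimates between these sham arrays exceeded those of OVX against sham callus for each of the 3 genes (0.49, 0.25 and 0.03 for Pdgfc, Pdgfra and Pdgfrb), which was not tested as a difference.

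Other genes of the pathway were read in the same fits, where 22.6% of all genes were called higher in callus and 19.8% lower. Of 5 VEGF receptors and co-receptors, 2 were higher in callus than in uninjured bone, the neuropilins Nrp2 (1.69, adjusted p = 5.774e-05) and Nrp1 (0.74, adjusted p = 0.0436), while the kinases Flt1 (0.12), Kdr (0.31) and Flt4 (0.38) did not pass. Neither of the other 2 VEGF ligands tested was called (Pgf 0.34, Vegfd 0.20). Of 9 proteins that cut or bind the ligands, 7 were higher and none was lower. These were Adamts3 (4.06) and Ccbe1 (1.15), which together activate VEGF-C, the proprotein convertases Pcsk5 (2.96), Pcsk6 (2.72) and Furin (0.76), Lrp1 (2.69), a receptor that associates with PDGFRβ, and Sparc (0.88), which binds PDGF. Plat, the plasminogen activator that cuts PDGF-C, was at 0.91 and Plau, which cuts PDGF-D, at -0.30, both not called.

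Of 18 signalling genes downstream of the receptors, 4 were higher in callus (Plcg1 2.01, Gab1 1.89, Src 1.89, Spred1 0.88) and 4 lower (Cbl -1.91, Dusp6 -1.04, Nck1 -0.98, Grb2 -0.53), with a median of 0.09 against 0.02 over all genes. These counts lie near the shares over all genes, 22.6% higher and 19.8% lower. Of 11 targets of hypoxia-inducible factors, the regulators that also act on Vegfa, 8 were higher and 1 (Ero1a, -1.02) lower. The median was 1.08, and the higher ones included Adm (3.80), Car9 (2.86) and the glucose transporter Slc2a1 (2.02). Of 8 oxygen sensing genes 2 were higher, Egln1 (1.33) and Hif1a (0.96), also near the share over all genes.

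In three-letter against two-letter sham callus, Vegfd (-2.57), Plat (-2.28) and Plau (-1.91) were lower and Pcsk6 (1.78), Gab1 (1.79) and Egln1 (1.37) higher. All 11 hypoxia targets had positive estimates there and 0 were called (median 0.75), with list means of 12.72 and 12.91 in three-letter and 11.94 and 12.20 in two-letter sham callus, in the direction of Vegfa. Of the mural cell genes, which include smooth muscle and pericyte markers, Acta2 (-1.78) and Tagln (-1.60) were lower, as the PDGF receptors were, and Cspg4 (1.64) was higher. Other lists moved as well: 13 of 14 chondrocyte genes (median 0.83, 2 called), 15 of 15 endothelial genes (median 0.82, 0 called) and 10 of 10 neutrophil genes (median 0.75, 1 called) had positive estimates, and 11 of 13 macrophage genes (median -0.86, 0 called) negative ones. The part of these cell types in the members' values was not tested. In OVX against sham uninjured bone 1 pathway gene was called, Pcsk5 (2.77, adjusted p = 0.02239), and in OVX against sham and OVX + E2 against OVX callus none was. In OVX against sham callus 11 of 11 hypoxia targets had negative estimates (median -0.25), with Vegfa at 0.05. In OVX + E2 against OVX callus 9 of 11 had positive ones (median 0.07), with Vegfa at -0.45. List and Vegfa had the same sign in OVX against sham uninjured bone (median 0.09, Vegfa 0.40). The part of hypoxia in the values of Vegfa was not tested.

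Across arrays, Pdgfc and the 2 receptors varied together. Pearson's r over the 17 arrays was 0.961 for Pdgfc with Pdgfrb, 0.944 for Pdgfc with Pdgfra and 0.938 for the 2 receptors, and 0.822, 0.822 and 0.802 over the 12 callus arrays alone. Vegfa had an r of 0.507 with Pdgfrb over the 17 arrays and of -0.557 over the callus arrays, so that the sign turned when the uninjured arrays were left out. Pdgfd and Vegfc had an r of 0.812 over the 17 and 0.707 over the callus arrays. These are descriptions over arrays that share injury, population and title form.

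The genes most like each member by r over the 17 arrays were of different kinds. For Pdgfra they were Thbs4 (0.986), Dpt (0.984) and Gas6 (0.98), for Pdgfrb Ltbp2 (0.974), Rbms3 (0.967) and Cdh11 (0.964), for Pdgfc Cdh11 (0.983), Lhfp (0.969) and Cald1 (0.965), and for Pdgfa P2ry10b (0.969), Fhl2 (0.968) and Hacd1 (0.958). For Vegfa they were Unc119b (0.959), Fam20b (0.95) and Plekhh2 (0.945). For Pdgfb they were Gpihbp1 (0.865), Stab1 (0.842) and Shank3 (0.833), for Pdgfd Fzd6 (0.901), Jcad (0.892) and Hoxd8 (0.864), for Vegfc Ptprg (0.874), Tmem158 (0.859) and S1pr1 (0.853), and for Vegfb Kcng2 (0.839), Barx1 (0.801) and Arhgap10 (0.798). Cdh11, a cadherin of mesenchymal cells, was the gene shared by the lists of Pdgfc and Pdgfrb.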

How the data were processed

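The authors deposited 1 table of log2 signal for 17 Affymetrix arrays, 45101 probe sets each. The methods describe TRIzol and RNeasy Micro extraction, RiboAmp amplification over 2 rounds, dChip, and normalization to the Common Reference of Gene Expression Commons; the submitters' processing notes name MAS5 with no version. Which of these tools made the deposited log2 values is not settled, and nor is a background correction known. Of the probe sets 64 are controls, 34945 carry 1 gene symbol, 932 several and 9160 none, and 34741 symbols matched the GRCm38.p6 gene table.

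Here the linear signals were quantile normalized, values under the 20th percentile were set to it (5.951 in log2), and log2 was taken again. A gene was tested if 2 or more arrays reached the 40th percentile (7.198), and was read at its probe set of highest mean. Because the methods went by dynamic range in that reference, the probe set of widest range over these arrays was an alternative. Levels of different probe sets were not compared. limma 3.58.1 in R 4.3.3 (lmFit, eBayes with trend, Benjamini-Hochberg adjustment over all genes) was fitted to all 17 arrays: surgery and injury group, population and title form for the ovary, population and title form comparisons (7 residual degrees of freedom), and injury, population and title form for callus against uninjured bone (12). Interactions were added to the injury fit. Pairs were compared with exact two-sided sign-flip tests. Conflicting and unstated arrays entered no ovary comparison except as named. Alternatives changed the normalization, floor, filter, probe set, title form term, moderation and use of the conflicting arrays, and arrays were left out 1 at a time. The fit was also run on simulated data with independent errors, which cannot show how it behaves where arrays share an effect. Named genes were all 9 members, the called pathway genes (147 of 166 genes in 16 lists were tested), and the 3 genes most like each member. The members and lists were chosen with earlier results of these data known.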

Additional observations from a re-analysis of the deposited data

Results flagged for a closer look

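The change in callus against uninjured bone differed between the population-first and the three-letter arrays for 3 of the 9 genes, by a test of the difference itself that was added after the values were seen. The difference in log2 fold change (population-first minus three-letter) was 3.50 for Pdgfrb, 2.85 for Pdgfc and 2.55 for Pdgfra, and 632 of 14504 genes passed this test. Without the mBCSP array of callus of unstated surgery Pdgfc (2.43) and Pdgfra (2.11) did not pass it, and 1 other probe set of each receptor gave 0.37 (Pdgfrb) and -0.34 (Pdgfra), neither called. The form of the title, the surgery and the source of the uninjured arrays differ together between these arrays and cannot be told apart. The population-first uninjured signals of Pdgfrb, Pdgfra and Pdgfc were also low (above). In the 36 sets examined over the 9 genes, of 4 to 6 arrays or of 8 pair differences, 0 held a value far from the others by Dixon's criterion. The array sets were sham callus, uninjured and two-letter callus. The mBCSP array of callus of unstated surgery therefore entered only through its pair difference.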

How the results depend on the processing

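Of 360 values of members under alternatives other than leaving out an array, 337 kept their direction and side of the threshold. The 5 calls in callus were kept in all of these alternatives except within 1 title form (above). The cause of the changes was not tested. Fits within 1 title form also hold fewer arrays.

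Signs turned for estimates near 0. In callus against uninjured bone, Pdgfb became -0.056 with the values as deposited, -0.0073 without the title form term and -0.071 in three-letter arrays alone, Vegfb 0.084 without the title form term, and Vegfc -0.20 in three-letter and -0.034 in population-first arrays alone. In mSSCs against mBCSPs, Pdgfc became -0.20 at the probe set of widest range and -0.11 without the 3 three-letter pairs, and Pdgfd 0.66 without those pairs. In OVX against sham callus, Pdgfd became 0.26 and Vegfa -0.36 without the title form term, and 0.46 and -0.26 with the conflicting arrays counted as OVX. In OVX + E2 against OVX callus, Pdgfa became 0.017 as deposited and 0.11, with Pdgfrb at -0.12, with the conflicting arrays counted as OVX. Calls of members changed for Vegfa between title forms (-1.60, adjusted p = 0.03341, as deposited), for Pdgfc in OVX against sham uninjured bone (2.11, adjusted p = 0.0495, without the title form term) and for Pdgfc in three-letter against two-letter sham callus (-1.19, adjusted p = 0.1132, at the probe set of widest range).

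Counts of genes called moved too. OVX against sham uninjured bone called 7 genes as deposited, 46 without the filter and 485 without the title form term, against 21. Conflicting labels against sham callus called 27 as deposited, 9 at the probe set of widest range and 177 without the title form term, against 42. Without the filter the interaction of injury and population called 4 genes. OVX against sham callus called 1 without the filter and 2 once the conflicting arrays were counted as OVX. Three-letter against two-letter sham callus called 278 at the probe set of widest range, against 422, OVX + E2 against OVX callus 0 without the title form term, against 3, and callus against uninjured bone 1154 in population-first arrays alone, against 6150.

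With each array of a comparison left out in turn, the 5 calls in callus were kept 17 times of 17, at 1.02 to 1.22 for Pdgfa, 1.69 to 2.41 for Pdgfc, 1.35 to 2.17 for Pdgfra, 2.25 to 2.98 for Pdgfrb and 1.16 to 1.48 for Vegfa. Estimates whose sign turned ran over -0.14 to 0.16 for Pdgfb and -0.31 to 0.39 for Vegfc in callus, -0.63 to 2.34 for Pdgfd in the interaction, and -0.073 to 0.13 for Pdgfc between populations. In OVX against sham callus they ran over -0.72 to 0.11 for Pdgfb, -0.53 to 0.19 for Pdgfd, -0.055 to 0.11 for Pdgfrb and -0.40 to 0.019 for Vegfb. In OVX + E2 against OVX callus they ran over -0.11 to 0.10 for Pdgfa, -0.47 to 0.26 for Pdgfra, -0.059 to 0.090 for Pdgfrb, -0.13 to 0.50 for Vegfb and -0.12 to 0.91 for Vegfc. Genes called numbered 0 to 6 for the interaction, 0 to 46 for conflicting labels against sham callus, 36 to 91 for three-letter against two-letter sham callus, 0 to 0 for OVX + E2 against OVX callus, 6 to 64 for OVX against sham uninjured bone and 334 to 2831 for the difference between title forms, where Vegfa passed the test when any 1 of 4 arrays was left out (-1.49 to -1.38).

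The labels carry no replicate numbers, so mSSC and mBCSP arrays were matched by group and title form alone; with these pairs as a random block no call of a member in callus changed. The number of arrays, 17 in all and 1 to 2 per group and population, limits the precision, and a background level per array was not used here.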
